A study of Mus musculus with 1470 samples.

Results

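Plasma proteins are the proteins that circulate in blood, and hepatocytes, the main parenchymal cells of the liver, make and secrete most of them. Albumin and transthyretin carry small molecules, apolipoproteins carry lipids, transferrin, haptoglobin, hemopexin and ceruloplasmin handle iron, heme and copper, and fibrinogen, prothrombin and plasminogen act in clotting and its reversal. Their messenger RNAs are among the most abundant of the liver, so they can be found in libraries of cells that are not known to make them, through RNA released from damaged cells, through uptake of cell material or through the handling of libraries. Kupffer cells, the resident macrophages of the sinusoid, are known for taking up dead cells and debris.

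The transcripts described are 32 genes of the 14915 in the deposited table, chosen by name as abundant plasma proteins of hepatocyte origin, and each had 1 row. They comprised 5 lipid carriers, 8 carriers of small molecules, 4 iron, copper and heme carriers, 8 proteins of clotting and fibrinolysis, 3 protease inhibitors and 4 heavy chains of the inter-alpha-trypsin inhibitor. The question was how high each stood in every class of non-parenchymal cells relative to hepatocyte-like cells of the same mouse, and whether this differed between diets.

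Livers came from male C57BL/6J mice on a normal diet (ND, 3 mice) or a high-fat diet (HFD, 3 mice). The livers were digested with collagenase, hepatocytes were removed by centrifugation, and live single cells were sorted into plates for Smart-seq2, a full-length method without molecular identifiers, and the wells were read from the cell titles. The table holds 1470 cells as RPKM, the reads of a gene divided by its length and by the mapped reads of the cell. Clustering without the 32 genes gave 37 hepatocyte-like cells, 25 to 52 Kupffer cell-like and 15 to 72 T cell-like cells per mouse, and 44 monocyte, macrophage and dendritic cell-like (MoMac/DC-like), 456 endothelial-like, 248 B cell-like, 57 NK-like, 26 plasmacytoid dendritic cell-like, 26 neutrophil-like and 43 erythrocyte-like cells.

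The hepatocyte-like cells are those left after hepatocytes had been spun out, and they limit every ratio given here. They numbered 9, 2 and 1 in ND mice 1 to 3 and 7, 12 and 6 in HFD mice 1 to 3. Of 15 intracellular hepatocyte markers, 12 were found in at least 25% of these cells, with a summed level of 25331 to 34647 RPKM by mouse, against 600 to 2195 RPKM in Kupffer cell-like cells. The cytochrome genes Cyp2c29 and Cyp1a2 were found in only 5.41% and 16.2% of them, and no marker of stellate cells or cholangiocytes reached 25% of them. Estimated exon reads per cell had medians from 86632 to 196821 by mouse. HFD mouse 2 stood apart. Its cell titles carry no prefix, whereas those of each other mouse share 1, and it had the fewest genes per cell (median 1595.5, against 2363.5 to 3163 in the other mice) and the members summed to the lowest level of the 6 mice in its B cell-like, Kupffer cell-like and endothelial-like cells, so counts are also given without it.

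The upstream sequence of 3 members is shown because it carries the letters of a liver-enriched factor's site close to the start of transcription. HNF1 is a transcription factor of hepatocytes and of some other epithelia. The 150 bases before the RefSeq start site (build GRCm38), written 5′ to 3′ on the gene's strand, hold the letters GTTAATNAT, or their reverse complement, in capitals.
Alb, chr5:90460720-90460869, plus strand: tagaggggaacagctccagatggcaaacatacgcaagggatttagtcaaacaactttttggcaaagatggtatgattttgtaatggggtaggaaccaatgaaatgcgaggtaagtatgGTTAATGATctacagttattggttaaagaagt
Fga, chr3:83026003-83026152, plus strand: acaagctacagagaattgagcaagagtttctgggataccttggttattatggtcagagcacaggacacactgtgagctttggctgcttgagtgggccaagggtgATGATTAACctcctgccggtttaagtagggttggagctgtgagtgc
Gc, chr5:89457899-89458048, minus strand: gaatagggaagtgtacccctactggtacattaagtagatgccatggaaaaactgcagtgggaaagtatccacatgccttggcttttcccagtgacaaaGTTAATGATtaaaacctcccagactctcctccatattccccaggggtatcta
Promoter entries existed for 25 of the 32 members. On either strand of the 250 bases before the start site, GTTAATNAT stood in 5 of the 25 (20%; Alb, Fga, Gc, Cp and Pzp) and in 0.866% of 27025 genes. TTGCNNAA, letters of a C/EBP site, stood in 11 of the 25 (44%) and in 10.8% of all genes, TGTTTGC, letters of a FOXA site, in 6 (24%) and in 4.93%, and TATAAA in 6 (24%) and in 14.3%. These 4 sets of letters can overlap, they were kept after several had been looked at, and a match is not a bound site.

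Several members lie side by side in the genome, while Gc and Alb lie further apart on the same chromosome. The gene positions come from the annotation, and their starts differ by under 100 bases from the start sites used above. In GRCm38 the fibrinogen genes occupy chr3:83007724-83015049 (Fgg), chr3:83026076-83033627 (Fga) and chr3:83040141-83049863 (Fgb), and the vitamin D-binding protein gene Gc (chr5:89417522-89457898) and Alb (chr5:90460897-90476602) lie on chromosome 5. Itih4, Itih3 and Itih1 lie at chr14:30886476-30902353, chr14:30908572-30923760 and chr14:30929180-30943289, and Ahsg, Fetub, Hrg and Kng1 lie between positions 22891277 and 23082078 of chromosome 16.

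Alb, which encodes the most abundant plasma protein, was detected in every class. Its mean RPKM in hepatocyte-like cells was 6176, 19231 and 4152 in ND mice 1 to 3 and 11353, 13487 and 4317 in HFD mice 1 to 3. The Kupffer cell-like means of the same mice were 1723, 2231 and 2523, and 2751, 929 and 2070. In T cell-like cells it was 44.8, 30.9 and 84.3, and 63.9, 161.6 and 201.6. Every mouse thus had its Kupffer cell-like mean below its hepatocyte-like mean and far above its T cell-like mean. The mean over mice was 2038 ± 650 RPKM in Kupffer cell-like, 997 ± 503 in endothelial-like, 368.7 ± 229.2 in B cell-like and 97.9 ± 68.5 in T cell-like cells (SD, n = 6 mice), against 9786 ± 6001 in hepatocyte-like cells.

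Most cells of each class held some Alb reads. At an RPKM of at least 1, Alb was found in 99.4% of Kupffer cell-like, 96.2% of endothelial-like, 94.6% of B cell-like and 95.4% of T cell-like cells, as means over mice. At an RPKM of at least 32 the shares were 90.3%, 72.8%, 56.6% and 35.2%. The estimated number of Alb reads per cell had a median of 1483 in hepatocyte-like, 226.6 in Kupffer cell-like, 24.5 in endothelial-like, 8.35 in B cell-like and 5.87 in T cell-like cells. Alb was at 0 in 0.418% of Kupffer cell-like, 4.61% of endothelial-like, 6.45% of B cell-like and 6.46% of T cell-like cells. HFD mouse 2 held most of these cells, with 1 of 1, 19 of 21, 12 of 16 and 17 of 19. In the other mice the shares at 0 were 0%, 0.559%, 2.06% and 0.901%, against 3.33%, 19.4%, 22.2% and 23.6% in HFD mouse 2. The median depth of Kupffer cell-like cells, 97054 exon reads, was below that of T cell-like cells, 139686 exon reads. It was 96246 in hepatocyte-like, 112712 in B cell-like and 122057 in endothelial-like cells, and the part of depth in the levels was not tested.

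**Figure D1:**
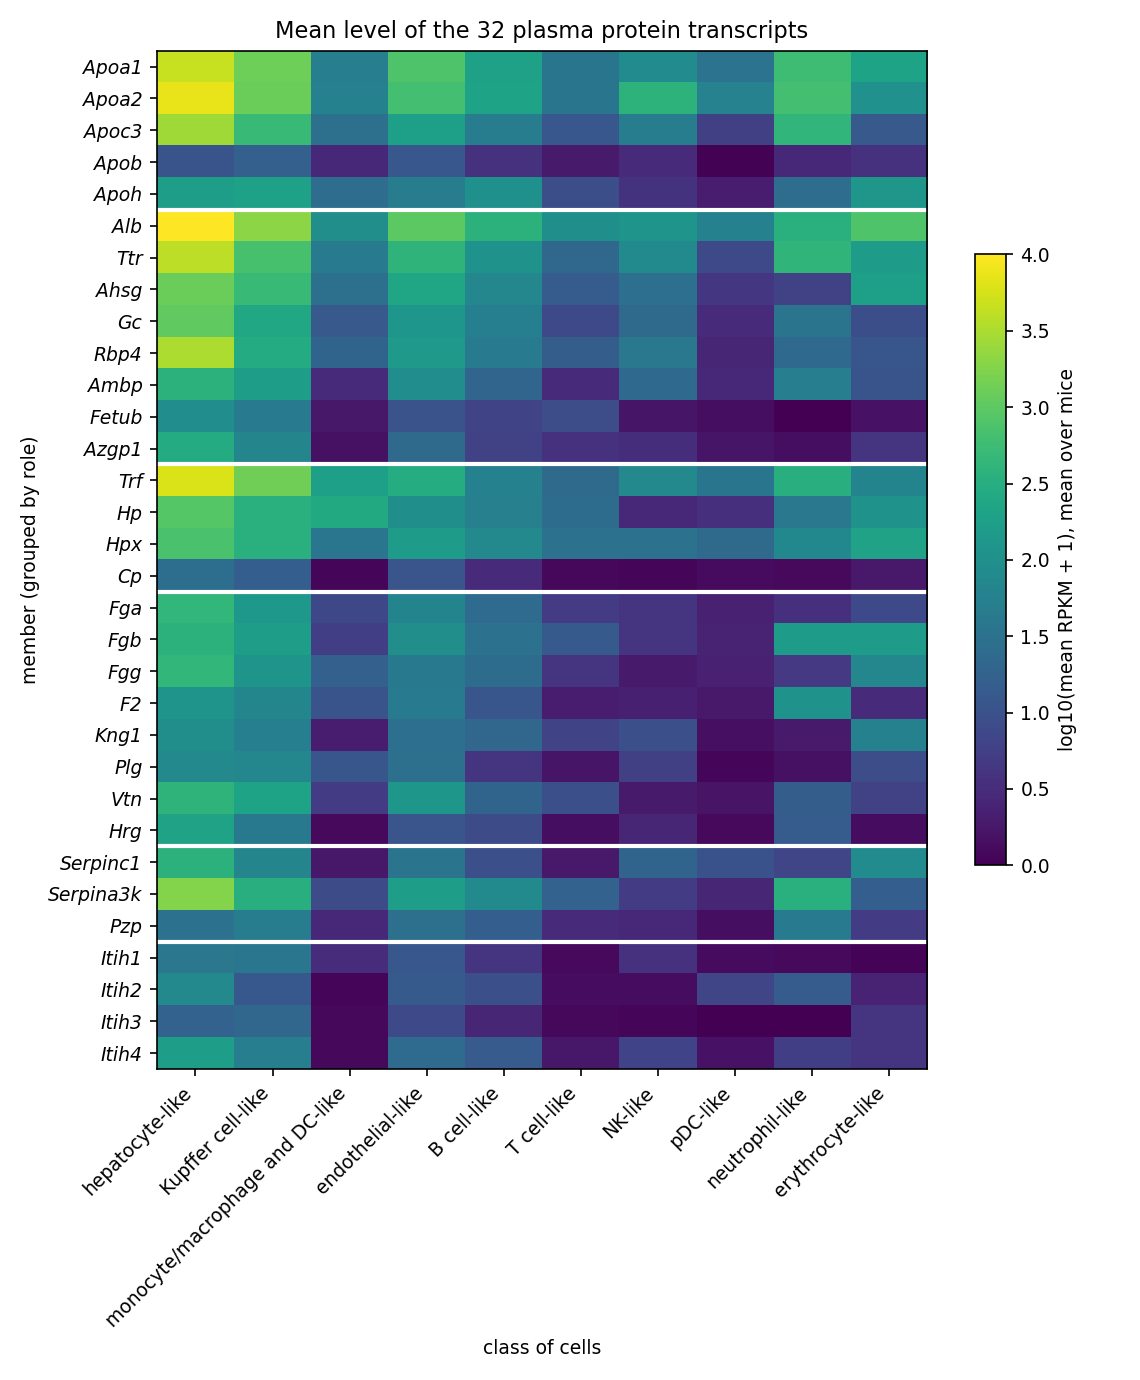
Mean level of each of the 32 transcripts (rows, grouped by role) in each of the 10 classes of cells (columns), as log10 of the mean RPKM over mice plus 1. Hepatocyte-like cells are the brightest column and Kupffer cell-like cells the next for most members, and 27 of the 32 were highest in Kupffer cell-like cells among the other 9 classes.

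Summed over the 32 members, the share of all RPKM followed the same order. In hepatocyte-like cells the members made up 5.38%, 11.1% and 3.11% of RPKM in ND mice 1 to 3 and 6.81%, 5.59% and 4.23% in HFD mice 1 to 3. Of Kupffer cell-like RPKM they made up 1.14%, 1.3% and 1.61%, and 1.42%, 0.644% and 1.47%. The Kupffer cell-like values of the 6 mice lay below all 6 hepatocyte-like values. Endothelial-like cells ranged from 0.206% to 1.24% by mouse, B cell-like cells from 0.0451% to 0.547%, T cell-like cells from 0.0137% to 0.096% and MoMac/DC-like cells from 0.06% to 0.184%. The endothelial-like range overlapped those of Kupffer cell-like and B cell-like cells.

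As a percent of the hepatocyte-like sum of the same mouse, the Kupffer cell-like sum was 23.6%, 12.5% and 58.3% in ND mice 1 to 3 and 22.2%, 13.7% and 34.9% in HFD mice 1 to 3. The 2 extreme values are those of ND mice 2 and 3, whose references were 2 cells and 1 cell. The mean was 27.5% ± 17.1 over 6 mice and 23.6% ± 8.74 over the 4 mice with at least 5 hepatocyte-like cells. Endothelial-like cells stood at 12.7% ± 10.3, B cell-like cells at 4.76% ± 4.82 and T cell-like cells at 1.09% ± 0.901 (SD, n = 6).

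**Figure D2:**
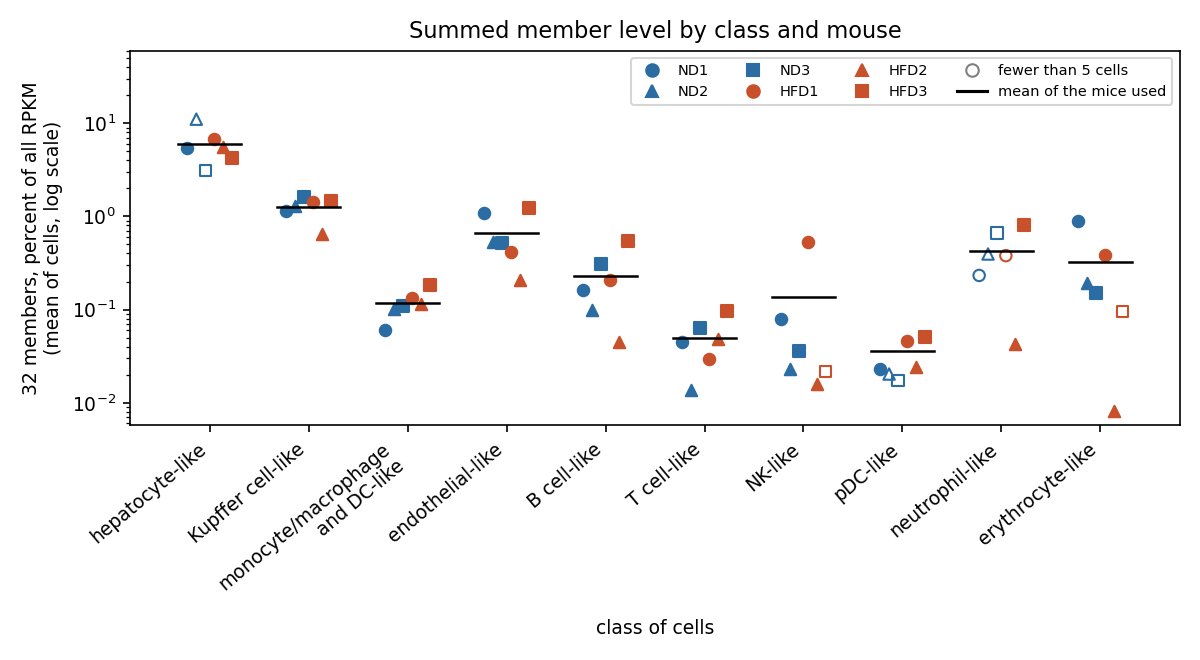
Share of all RPKM taken by the 32 members in each class of cells, as the mean of the cells of each mouse, on a log scale. Blue marks are ND mice and orange marks HFD mice, open marks rest on fewer than 5 cells, and black lines are means over mice. Kupffer cell-like cells lie between 0.644% and 1.61%, below all hepatocyte-like values and above every T cell-like value.

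Members ranked much alike in all of these classes. Across the 32 members, levels per length in Kupffer cell-like cells ranked with those in hepatocyte-like cells (Spearman's rho 0.93), and so did those in endothelial-like (0.91), B cell-like (0.86) and T cell-like cells (0.85). These correlations are across genes that share cells and libraries, and are given as descriptions. The members did not keep a single ratio, however. For each member the percent of the hepatocyte-like level was its mean RPKM over mice divided by that of hepatocyte-like cells. It ran from 8.78% (Rbp4) to 158.6% (Apob) in Kupffer cell-like cells, with a median of 35.1%. The median was 15.4% in endothelial-like, 5.42% in B cell-like, 0.872% in T cell-like and 1.12% in MoMac/DC-like cells. Percents within single mice spread widely. In Kupffer cell-like cells they ran from 6.89% to 60.8% for Alb and from 15.3% to 525.9% for Ahsg, both highest in ND mouse 3.

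Members that were low in hepatocyte-like cells stood at higher percents, with a rho of -0.68 between the 2 in Kupffer cell-like cells, a value that the shared denominator alone can lower. The percents of members that were rare in hepatocyte-like cells moved with the few reference cells. Cp stood at 52.8% in Kupffer cell-like cells with all 6 mice and at 698% with the 4 mice that had at least 5 hepatocyte-like cells, since its reference level was 154.6 RPKM in ND mouse 2 and 9.10 RPKM or less in every other mouse. F2 moved from 57.9% to 493% and Vtn from 53.2% to 240%. For abundant members the change was small, as for Alb (20.8% and 21.2%), Trf (22.7% and 22.4%) and Apoa2 (16.9% and 16%). Members of at least 2500 bases had a median of 49.8% in Kupffer cell-like cells, those under 1500 bases 28.3% and those between 26.2%, and the 3 ranges overlapped.

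**Figure D3:**
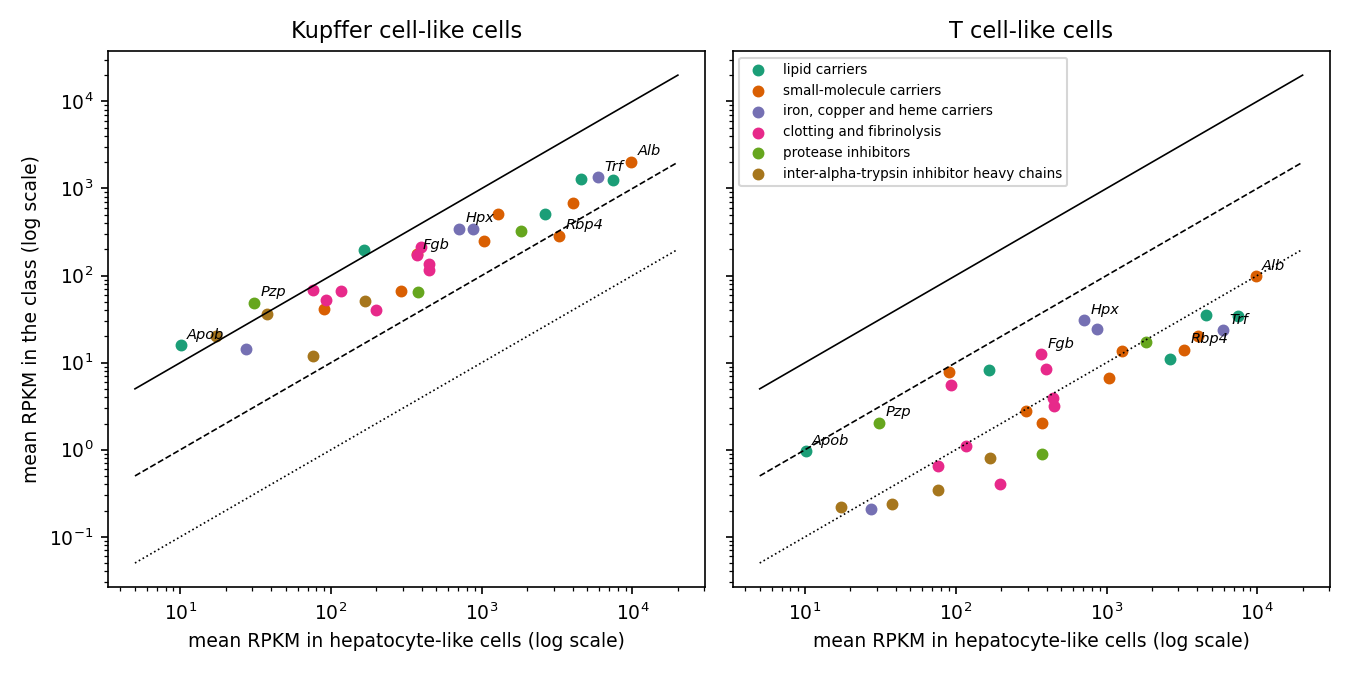
Mean RPKM of each member in Kupffer cell-like cells (left) and T cell-like cells (right) against its mean RPKM in hepatocyte-like cells, both on log scales and coloured by role. The solid, dashed and dotted lines mark 100%, 10% and 1% of the hepatocyte-like level. In Kupffer cell-like cells 31 of the 32 members lie above the 10% line, and in T cell-like cells none does.

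Means of single members often rested on 1 mouse. Leaving out the 1 mouse that moved it most changed the mean by over 1.5 times for 4 of the 32 members in Kupffer cell-like, 8 in endothelial-like, 22 in B cell-like, 17 in T cell-like, 25 in MoMac/DC-like and 19 in hepatocyte-like cells. The 4 in Kupffer cell-like cells were Apob, F2, Plg and Itih3. As a percent of the hepatocyte-like level, 15 of the 32 in Kupffer cell-like cells moved by over 1.5 times without 1 mouse. With all mice 4 members were at 100% or more, and only Pzp was so whichever mouse was left out. The median over members ran from 29.6% to 49.3%.

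Among the lipid carriers, the high-density lipoprotein genes Apoa1 and Apoa2 were the most abundant. Apoa1, the main protein of high-density lipoprotein, averaged 1290 ± 630 RPKM in Kupffer cell-like, 787 ± 697 in endothelial-like, 195.4 ± 137.1 in B cell-like and 34.8 ± 21.8 in T cell-like cells. Apoa2, its second protein, averaged 1260 ± 466, 639 ± 490, 205.9 ± 167.2 and 34.4 ± 38.9 RPKM in the same classes, the last being 20.02 without ND mouse 3. Apoc3, an inhibitor of lipoprotein lipase, averaged 2642 RPKM in hepatocyte-like cells, 513 ± 253.2 in Kupffer cell-like and 11.1 ± 10.5 in T cell-like cells.

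The structural protein of very-low-density lipoprotein, Apob, and the phospholipid-binding Apoh had means over all 6 mice that were no lower than in hepatocyte-like cells, with an order that changed with the mice used. Apob had a mean of 10.1 ± 15.1 RPKM in hepatocyte-like cells, where it was found in 29.2% of cells, and of 15.997 ± 16.06 RPKM in Kupffer cell-like cells, where it was found in 30.2%. Apoh averaged 164.8 ± 237.2 RPKM in hepatocyte-like and 196.3 ± 97.4 in Kupffer cell-like cells. For both genes the ranges over mice overlapped between these 2 classes. As a percent of the hepatocyte-like mean, Apob was at 158.6% with all mice, 79.8% without ND mouse 3, whose reference was 1 cell, 427.7% without ND mouse 2, whose reference was 2 cells, and 209.9% with the 4 mice that had at least 5. Apoh was at 119.1%, 92.02%, 255.4% and 180.6% in the same order, and at 92.4% without HFD mouse 3. The hepatocyte-like means were 4.30 RPKM for Apob and 71.6 RPKM for Apoh without ND mouse 2. Which of the classes held more of either transcript could therefore not be told.

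The carriers of small molecules ranged widely between classes. Transthyretin (Ttr), the carrier of thyroxine, averaged 4042 RPKM in hepatocyte-like, 680.02 ± 331.5 in Kupffer cell-like, 400 ± 357 in endothelial-like and 20.4 ± 15.8 in T cell-like cells. Its partner Rbp4, the retinol carrier, averaged 3264 ± 518 in hepatocyte-like cells and only 286.5 ± 106.4 in Kupffer cell-like cells, the lowest percent of the 32 members there. Ahsg (fetuin-A) averaged 503.9 ± 192.8 RPKM in Kupffer cell-like cells, 39.5% of its hepatocyte-like level, and Gc averaged 250.01 ± 43, or 24.1%. Ambp, the precursor of alpha-1-microglobulin and bikunin, Azgp1 and Fetub stood at 46.6%, 22.7% and 46.5%. Leaving out 1 mouse in turn, these percents ran from 33.7% to 74.9%, from 17.1% to 64.3% and from 33.5% to 141.7%, the highest being without ND mouse 2 for Ambp and Azgp1 and without HFD mouse 1 for Fetub.

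Transferrin (Trf), the iron carrier of plasma, was abundant in Kupffer cell-like cells of every mouse. Its mean there was 1443, 1281 and 1485 RPKM in ND mice 1 to 3 and 1335, 1353 and 1136 in HFD mice 1 to 3. On this scale the mice lay closer together than for Alb, which ranged from 929 to 2751 RPKM in the same cells. On the mean log2(RPKM + 1) scale Trf stood at 7.63 in HFD mouse 2 and at 9.50 to 9.81 in the other mice, with an SD of 0.85, and Alb at 7.44 to 10.30, with an SD of 1.03. Trf was found in 98.3% of Kupffer cell-like cells, with a median of 1016 RPKM per cell. In endothelial-like cells it averaged 294.4 ± 289.8 RPKM and ranged from 92.1 to 783, and in B cell-like cells it averaged 57.2 ± 58.2, or 34.9 without HFD mouse 3. Of the summed member RPKM, Trf made up 12.5% in hepatocyte-like and 12.4% in Kupffer cell-like cells, but 5.94% in endothelial-like and 3.40% in B cell-like cells. Alb made up 20.7%, 18.9%, 20.1% and 21.9% in these 4 classes.

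Haptoglobin (Hp), which binds free hemoglobin, was placed differently in MoMac/DC-like cells than in Kupffer cell-like cells. In MoMac/DC-like cells it averaged 204.5, 510.1 and 230.7 RPKM in ND mice 1 to 3 and 111, 415 and 110 in HFD mice 1 to 3. It made up 28.9% of the members' RPKM in that class, against 1.84% in hepatocyte-like and 3.21% in Kupffer cell-like cells, and stood at 30.3% of its hepatocyte-like level, where the median member stood at 1.12%. Trf stood at 179.2 RPKM in MoMac/DC-like cells, or 19.7% of the members' RPKM. In neutrophil-like cells, which numbered 2 to 9 per mouse, Hp was at 791, 2415 and 2506 RPKM in ND mice 1 to 3 and at 867, 4.67 and 72.6 RPKM in HFD mice 1 to 3. Only HFD mice 2 and 3 had at least 5 such cells, so no test was made.

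Hemopexin (Hpx), the heme carrier, averaged 346.1 ± 69.2 RPKM in Kupffer cell-like and 153.4 ± 100.5 in endothelial-like cells. Ceruloplasmin (Cp), the copper-carrying ferroxidase, was low throughout, at 14.4 ± 4.61 RPKM in Kupffer cell-like and 0.208 ± 0.138 in T cell-like cells.

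The 3 fibrinogen chains were found in each of these classes. Among Kupffer cell-like cells Fga averaged 135.8 ± 40.4, Fgb 173 ± 55.9 and Fgg 117.3 ± 56.4 RPKM, and in endothelial-like cells 63.7 ± 40.8, 94.98 ± 78.9 and 40.4 ± 15.5. In T cell-like cells they stood at 3.89, 12.5 and 3.21 RPKM. Each of these T cell-like means rested on 1 mouse: Fga was 1.87 RPKM without ND mouse 1, and Fgb and Fgg were 2.25 and 1.75 RPKM without HFD mouse 3. Vitronectin (Vtn), an adhesion protein of plasma, averaged 212 ± 75.4 in Kupffer cell-like and 130 ± 86.1 in endothelial-like cells. Prothrombin (F2), plasminogen (Plg), kininogen (Kng1) and histidine-rich glycoprotein (Hrg) averaged 67.3 ± 64, 68.8 ± 77.3, 52.3 ± 28 and 40.7 ± 27 RPKM in Kupffer cell-like cells. F2 was at 194.2 RPKM in HFD mouse 2 and averaged 41.9 RPKM without it, and Plg was at 190.02 RPKM in ND mouse 3 and averaged 44.6 RPKM without it.

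Among the protease inhibitors, antithrombin (Serpinc1) averaged 64.4 ± 35.9 RPKM in Kupffer cell-like cells and Serpina3k 322.6 ± 148.97, while Pzp, a broad protease trap of the alpha-2-macroglobulin family, averaged 48.9 ± 26.9 there and 30.97 ± 47.7 in hepatocyte-like cells, or 12.1 there without ND mouse 2. Serpina3k and Pzp have close relatives in the mouse genome, and reads that match more than 1 gene were not counted, so their levels are uncertain. The heavy chains Itih1 to Itih4, which attach to hyaluronan, were among the rarest members. In Kupffer cell-like cells Itih1, Itih2, Itih3 and Itih4 averaged 36.4, 11.9, 20.01 and 51.1 RPKM and were found in 19.7%, 17.1%, 13.9% and 29.3% of cells. Itih3 averaged 12.01 RPKM without HFD mouse 1.

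Other lists were measured in the same cells. Of 30 intracellular hepatocyte genes, 29 had a mean of at least 10 RPKM in hepatocyte-like cells, and their median percent in Kupffer cell-like cells was 7.12%, against 35.1% for the members. These 2 medians are a description, since 15 of the 30 genes named the hepatocyte-like cells and the list was open to the clustering, from which the members were left out. The 14 of the 29 that did not name them had a median of 6.65%. The lists were also not matched for level, with medians in hepatocyte-like cells of 1387 RPKM for the naming genes and 746.9 RPKM for the others, both above the median of the members. In endothelial-like cells the medians were 1.1% and 15.4%, in B cell-like cells 0.268% and 5.42%, and in T cell-like cells 0.130% and 0.872%. The intracellular genes with the lowest percents in Kupffer cell-like cells were Hao1 (2.03%), Gnmt (2.29%) and Fabp1 (2.82%), of which Fabp1, the liver fatty acid-binding protein, was the higher in level, with 21980 RPKM in hepatocyte-like and 619 in Kupffer cell-like cells. The highest were Hnf4a (20.8%), Cyp1a2 (39.8%) and Cyp2c29 (98%).

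Of 58 other plasma protein genes, 43 reached 10 RPKM in hepatocyte-like cells, with a median of 27.4% in Kupffer cell-like and 0.422% in T cell-like cells. The highest in Kupffer cell-like cells was Apoe (482%; 31704 RPKM), an apolipoprotein that macrophages are known to make, followed by Mug1 (221.8%) and Apoa5 (196.2%), and among the lowest were Saa4 (3.44%) and Hamp (3.83%). Markers of other classes were also found outside their class. Of the level in Kupffer cell-like cells, 8 Kupffer cell markers stood at a median of 2.05% in endothelial-like, 0.913% in B cell-like and 0.426% in T cell-like cells, and at 0.760% in hepatocyte-like cells. Of the level in endothelial-like cells, 10 endothelial markers stood at a median of 19.4% in erythrocyte-like cells, and at 0.523% to 4.38% in the other classes. All of these markers named the clusters, so their percents are a description.

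Libraries with hepatocyte markers were most frequent among Kupffer cell-like cells. At least 5 of the 15 intracellular hepatocyte markers reached 10 RPKM in 52.7% of Kupffer cell-like cells, in 34 of 456 endothelial-like (7.46%), 3 of 248 B cell-like (1.21%) and 4 T cell-like cells (1.36%). Without these cells, the median member kept 91.2% of its mean RPKM in Kupffer cell-like cells, 91.8% in endothelial-like, 99.96% in B cell-like and 98.9% in T cell-like cells. Single members moved further, from 52.2% (F2) to 207.2% (Itih3) in Kupffer cell-like cells, down to 46.9% (Plg) in endothelial-like and down to 68.4% (F2) in T cell-like cells. Alb in the remaining Kupffer cell-like cells, 10 to 27 per mouse, averaged 2215 ± 1082 RPKM and Trf 1453 ± 250.6 RPKM. Both means in RPKM were no lower than with all Kupffer cell-like cells. On the mean log2(RPKM + 1) scale Alb went from 9.43 to 9.05 and Trf from 9.36 to 9.41. Rbp4 kept 53.4% and Apoc3 61.2% of their mean RPKM, and Hp averaged 259.2 ± 121.6 RPKM.

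Classes of the same mouse were next compared with limma on mean log2(RPKM + 1) per mouse and class, with the mouse as a block and adjustment over all genes tested. Values on this scale understate the change of low genes. A gene was tested where its mean reached 1, so a member could pass the filter through the higher class alone, and counts are also given over all 32 members without a filter. Between Kupffer cell-like and endothelial-like cells, 26 members passed the filter and 23 were higher in Kupffer cell-like cells, none lower, where 18.3% of the 3889 genes tested were called higher and 34.4% lower. The median difference was 1.12 over the members tested and -0.24 over all genes. Without the filter 20 of 32 were higher, against 6.26% of all genes. Without HFD mouse 2, 23 of 27 members were called higher (17.7% of genes). The count was 16 of 25 without the cells that held hepatocyte markers (13.6% of genes), and 13 of 26 where cells were averaged before the logarithm (14.3% of genes).

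Trf had the largest difference of the 26. It stood at 9.36 in Kupffer cell-like and 4.92 in endothelial-like cells, a difference of 4.44 ± 0.35 (log2, SE; adjusted p = 1.12e-08), higher in 6 of 6 mice. Apoa2 (2.53 ± 0.31), Apoa1 (2.17 ± 0.32), Ahsg (2.17 ± 0.26) and Alb (2.14 ± 0.27; adjusted p = 3.21e-06) came next and were each higher in 6 of 6 mice. Serpinc1 passed narrowly with 0.55 ± 0.22 (adjusted p = 0.0468). Apob (0.46 ± 0.24, adjusted p = 0.124), F2 (0.27 ± 0.25, adjusted p = 0.387) and Itih4 (0.18 ± 0.26, adjusted p = 0.585) did not pass.

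Kupffer cell-like cells were above both lymphocyte classes for every member tested. Against B cell-like cells, all 22 members that passed the filter were higher (22.9% of 3488 genes, with 28.2% lower), and 27 of 32 without a filter (7.46% of genes). Trf differed by 5.53 ± 0.29 (adjusted p = 7.32e-10) and Alb by 3.60 ± 0.23 (adjusted p = 7.62e-09). Against T cell-like cells, all 21 that passed were higher (16.2% of 3958 genes, with 47.7% lower), and 32 of 32 without a filter (7.74% of genes), with Trf at 6.47 ± 0.29 and Alb at 4.84 ± 0.26.

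Endothelial-like cells stood between. Against B cell-like cells 13 of 21 members were higher (31.7% of 4062 genes, with 20.5% lower) and 14 of 32 without a filter (16% of genes), led by Alb (1.46 ± 0.27, adjusted p = 7.64e-05), Apoa1 (1.44 ± 0.26) and Apoa2 (1.41 ± 0.25). Hp (0.60 ± 0.31, adjusted p = 0.107) and Hpx (0.51 ± 0.26, adjusted p = 0.104) did not pass. Against T cell-like cells all 18 that passed the filter were higher (22.9% of 4517 genes, with 35.4% lower) and 22 of 32 without one (13.4% of genes), with Alb at 2.70 ± 0.28.

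Between the lymphocyte classes the members also differed. In B cell-like cells 9 of 16 members were higher than in T cell-like cells (8.96% of 4097 genes, with 34.1% lower), and 5 of 32 without a filter (2.9% of genes). Alb differed by 1.24 ± 0.22 (adjusted p = 0.000272; higher in 6 of 6 mice), Apoa2 by 1.26 ± 0.28 and Trf by 0.95 ± 0.23 (adjusted p = 0.00412). Apoc3 differed by 0.01 ± 0.24 (adjusted p = 0.977). The median difference over members and over all genes was 2.04 and -0.09 (Kupffer cell-like against B cell-like), 2.52 and -0.56 (against T cell-like), 0.77 and 0.13 (endothelial-like against B cell-like), 1.24 and -0.26 (against T cell-like) and 0.79 and -0.38 (B cell-like against T cell-like). In none of these 6 comparisons was a member called lower in the first-named class.

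**Figure D4:**
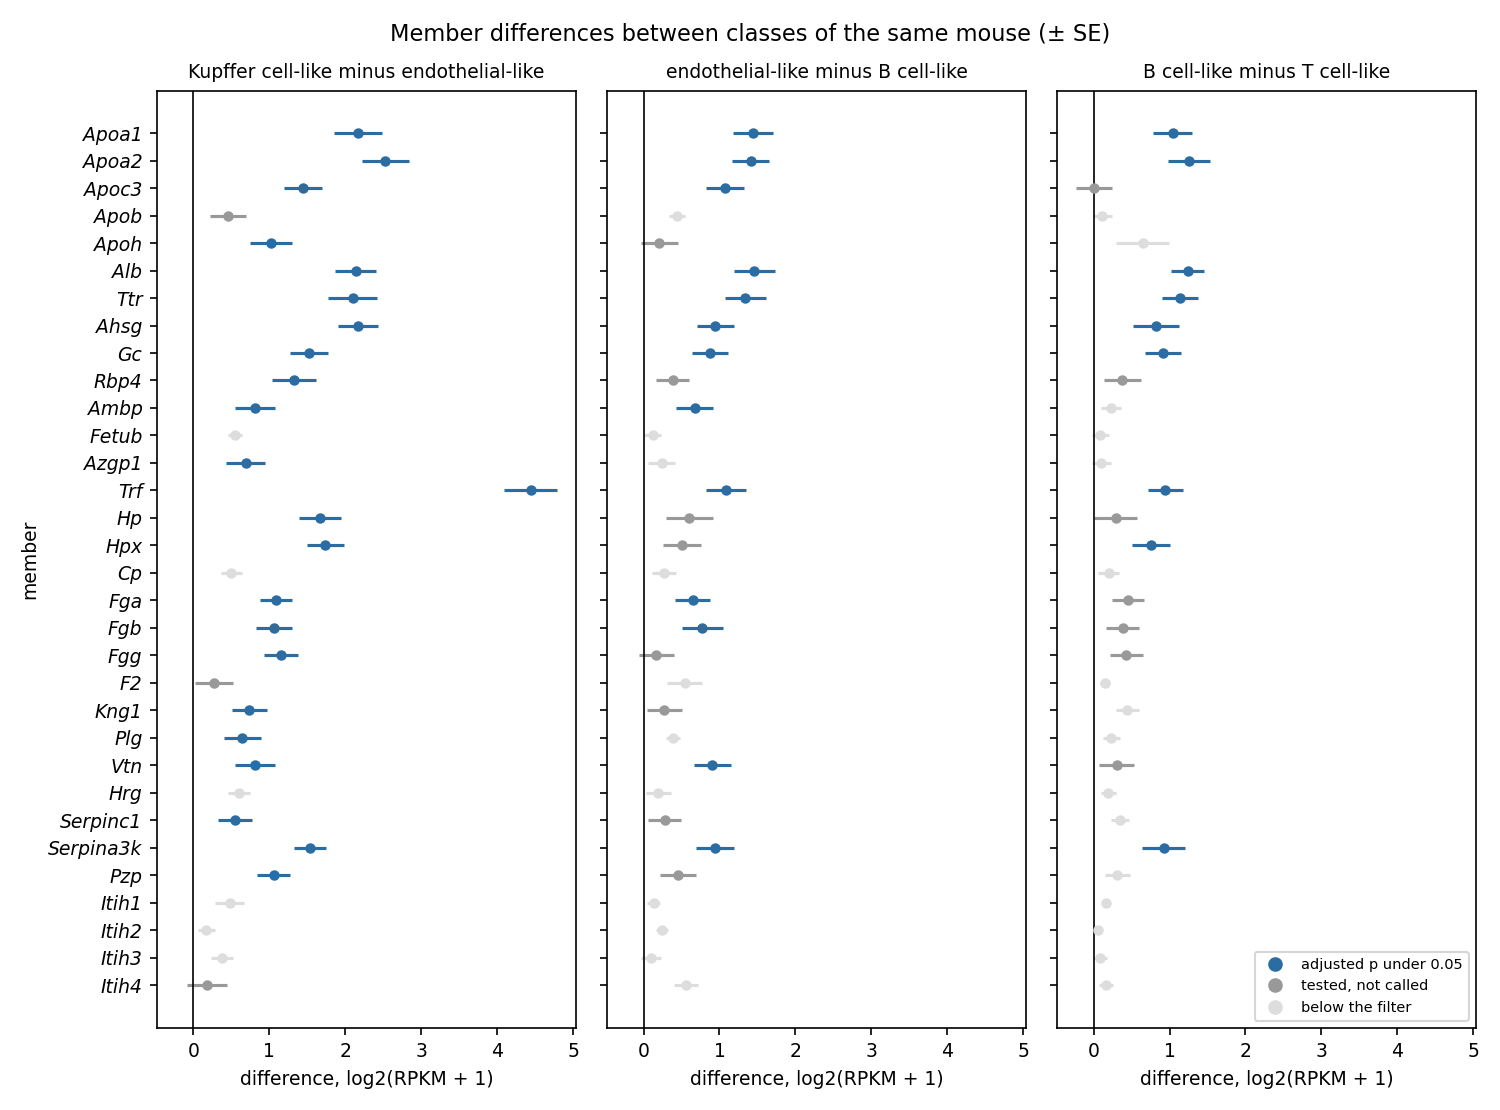
Difference of each member between pairs of classes of the same mice, on the log2(RPKM + 1) scale, with the SE from limma over 6 mice. Blue marks passed an adjusted p of 0.05, dark grey marks were tested and did not pass, and light grey marks were below the filter and come from the fit without it. Trf stands apart at 4.44 between Kupffer cell-like and endothelial-like cells.

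Of the other plasma protein genes that passed the filter, 10 of 16 were higher in Kupffer cell-like than in endothelial-like cells and 1 was lower. All 11 tested were higher in Kupffer cell-like than in B cell-like cells, and likewise all 11 tested against T cell-like cells. Endothelial-like cells were higher for 10 of 10 against B cell-like and 8 of 8 against T cell-like cells, whereas only 1 of 5 was higher in B cell-like than in T cell-like cells. These genes could pass the filter through the higher class alone, and without a filter the counts higher were 13 of 58, 18 of 57, 25 of 58, 11 of 58, 18 of 58 and 3 of 57 in the same order. The shares of all genes called are those given above.

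The diets were then compared within each class. In Kupffer cell-like cells mean log2(RPKM + 1) of Alb was 9.42, 9.42 and 10.06 in ND mice 1 to 3 and 9.91, 7.44 and 10.30 in HFD mice 1 to 3. In endothelial-like cells it was 8.20, 7.29 and 7.70, and 6.95, 4.43 and 9.16. In both classes HFD mouse 2 was the lowest of the 6 mice and HFD mouse 3 the highest, so the spread among HFD mice enclosed the ND mice. By limma, HFD minus ND of Alb was -0.42 ± 0.68 in Kupffer cell-like, -0.89 ± 0.78 in endothelial-like, -0.15 ± 0.71 in B cell-like and 0.19 ± 0.64 in T cell-like cells (SE; adjusted p of at least 0.995).

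No member was called between diets in any of the 7 classes tested, and limma called 0% of all genes in each. At an unadjusted p under 0.05 the members were 0 of 28 in Kupffer cell-like, 0 of 23 in endothelial-like, 1 of 18 in B cell-like, 0 of 14 in T cell-like, 0 of 14 in MoMac/DC-like, 0 of 11 in NK-like and 5 of 17 in erythrocyte-like cells. Of all genes tested, 2.29%, 2.28%, 3.62%, 3.24%, 2.84%, 5.42% and 5.43% had such a p in the same order of classes. The 1 in B cell-like cells was Hp (-1.12 ± 0.52), and the 5 in erythrocyte-like cells were Apoa1, Trf, Fgb, Ahsg and Serpina3k, with Apoa1 at -2.72 ± 0.97 (adjusted p = 0.808) from 5 mice. Members whose HFD mice all lay on 1 side of the ND mice numbered 1 in MoMac/DC-like cells, on the higher side, and 5 in erythrocyte-like cells, on the lower side, where HFD held only 2 mice. Over all genes the share on the higher side was 0.672% in Kupffer cell-like, 4.51% in MoMac/DC-like, 0.941% in endothelial-like, 0.387% in B cell-like, 0.387% in T cell-like, 2.5% in NK-like and 7.21% in erythrocyte-like cells. On the lower side it was 6.04%, 3.77%, 4.92%, 9.18%, 6.79%, 18.4% and 12.5% in the same order. The SEs of the members ran from 0.47 to 1.19 in Kupffer cell-like cells, so differences of that size could not be told from the spread of 3 mice a group. Larger differences could be missed as well. In data simulated for these cells, 0% of genes shifted by 1 between diets were recovered, 27.5% of those shifted by 2 and 66% of those shifted by 3.

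Leaving out HFD mouse 3 changed this in endothelial-like cells. Then 9 of 19 members were lower in HFD, where 1.15% of 4078 genes were called lower. They were Alb, Apoa1, Apoa2, Trf, Ttr, Ahsg, Hpx, Fgb and Serpina3k, with Apoa1 at -2.60 and Alb at -2.04. In that fit every gene had the same SE (0.51). This was smaller than the SEs of these 9 members with all mice, which ran from 0.59 (Fgb) to 0.93 (Ttr). The HFD group held mice 1 and 2, of which mouse 2 had the fewest reads and genes. Whether these values move with depth was not tested. Without HFD mouse 2, no member was called in endothelial-like cells.

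The summed share of the members was also compared between diets, where 3 against 3 mice cannot reach a p below 0.1. In Kupffer cell-like cells it was 1.18% ± 0.464 in HFD and 1.35% ± 0.240 in ND (SD, n = 3 each; exact two-sided permutation test, p = 0.7), and in endothelial-like cells 0.622% ± 0.550 and 0.710% ± 0.319 (exact permutation p = 0.8). In MoMac/DC-like cells the 3 HFD mice, at 0.134%, 0.116% and 0.184%, lay above the 3 ND mice, at 0.06%, 0.1% and 0.110%. The exact permutation p was 0.1, the smallest that 3 against 3 mice allow, and 0.7 after adjustment over 7 classes. Hepatocyte-like cells made up the highest shares in HFD mice 2 and 3 (3.82% and 4.03% of cells), which were the lowest and the highest of the 6 mice in the endothelial-like sum.

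Finally, cells were compared by plate position, since the libraries of a plate were prepared side by side with combinations of index primers. How the primers were laid out over rows and columns was not given in the sources used here. Non-hepatocyte cells in a row or column that held a hepatocyte-like cell were set against those in neither, as mean log2(summed member RPKM + 1). In T cell-like cells the difference was 0.72, 0.61 and 0.54 in ND mice 1 to 3 and 0.32, 2.57 and 0.92 in HFD mice 1 to 3. All 6 mice had the higher level in wells that shared a row or column. The mean was 0.95 ± 0.82 (SD, n = 6; exact two-sided sign-flip permutation test, p = 0.0312, the smallest 6 mice allow), and the adjusted p over 5 tests was 0.156, so the difference did not pass. It was 0.62 without HFD mouse 2, and no longer at p under 0.05 without any 1 mouse, since 5 mice cannot go below 0.0625.

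The other classes showed no such order. The difference was 0.21 ± 0.21 in Kupffer cell-like cells (5 mice, exact permutation p = 0.188), 0.03 ± 0.66 in endothelial-like cells (6 mice, exact permutation p = 0.906) and 0.38 ± 1.15 in B cell-like cells (5 mice, exact permutation p = 0.625). Over all non-hepatocyte cells it was 0.59 ± 0.91, positive in 5 of 6 mice (exact permutation p = 0.219). The mix of classes was not matched in that pooled value.

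**Figure D5:**
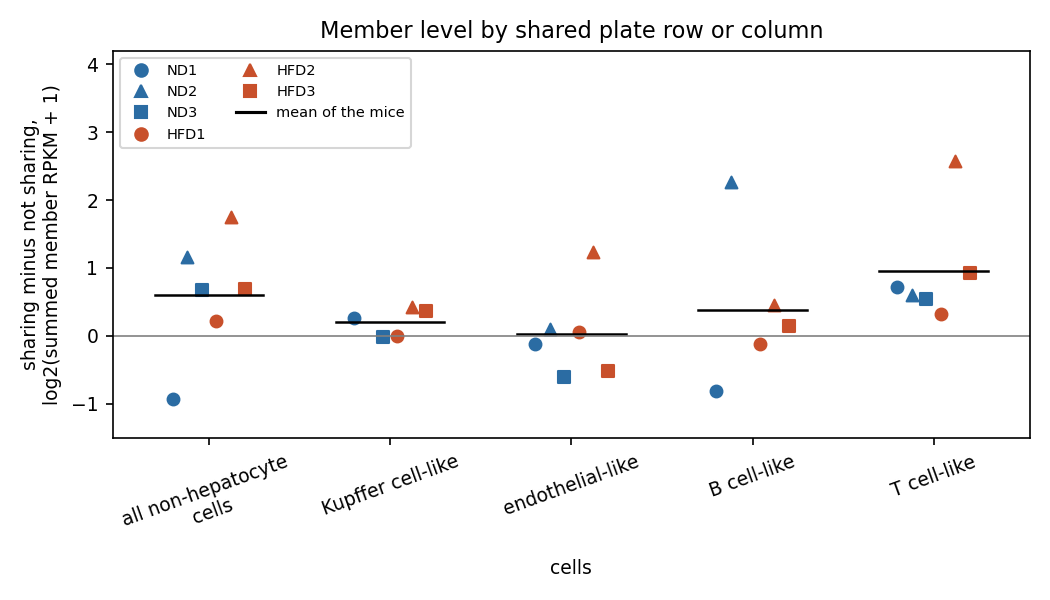
Mean log2(summed member RPKM + 1) of cells that share a plate row or column with a hepatocyte-like cell, minus that of cells sharing neither, for each mouse. Blue marks are ND mice, orange marks HFD mice and black lines the means over mice. All 6 mice are above 0 for T cell-like cells, while the other classes lie on both sides of 0.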

How the data were processed

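The deposited RPKM values were computed by the authors from 50-base single reads, aligned to mm10 with STAR and counted on RefSeq genes from uniquely mapped reads with rpkmforgenes, after their filters on cells and removal of doublets with Scrublet. All columns were matched to a mouse by the cell's title (0 without a sample). RPKM values are not counts. Depth was estimated from the steps between low values (74.2% of them within 0.1 of a whole read, 23.4% with shuffled lengths), and in 90% of 40 simulated cells it was within 5%. Cells were clustered without the members and other plasma protein genes, and clusters were named from marker genes by their leading genes. The members, lists and markers were chosen with earlier results of these data known. Every member could be named, and of other lists the 3 highest and 3 lowest in a class, of which 1 is not reported here. Per-mouse class means (at least 5 cells) of log2(RPKM + 1) were tested with limma 3.58.1 (no trend, genes averaging 1 or more), with Benjamini-Hochberg adjustment over all genes. On simulated data 66.5% of 200 genes shifted by 2 were recovered between classes and 27.5% between diets, and 0% of those shifted by 1 in either. Single values were tested by exact permutation over mice. Cells are not replicates.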

Additional observations from a re-analysis of the deposited data

How the results depend on the processing

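The mice of both diets carry the numbers 1 to 3, but nothing ties same-numbered mice together, and their deviations correlated between -0.19 and 0.20 over classes. With the replicate number as a block, as without it, 0 members were called between diets in any class. The calls of single members between classes kept their direction in every alternative, and 14 lost an adjusted p under 0.05 when cells were averaged before the logarithm and 15 without a filter. Averaging first lowered the count of members higher in Kupffer cell-like than in endothelial-like cells from 23 to 13 (and the share of all genes from 18.3% to 14.3%), and no filter on low values gave 32 for Kupffer cell-like against T cell-like cells and 5 for B cell-like against T cell-like cells. The share of cells with Alb at 32 RPKM or more was 90.3% in Kupffer cell-like, 72.8% in endothelial-like, 56.6% in B cell-like and 35.2% in T cell-like cells.

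Leaving out each mouse in turn, the members called higher numbered 17 to 23 (Kupffer cell-like against endothelial-like), 21 to 25 (against B cell-like), 20 to 23 (against T cell-like), 10 to 14 (endothelial-like against B cell-like), 15 to 19 (endothelial-like against T cell-like) and 7 to 9 (B cell-like against T cell-like). The shares of all genes called higher in those fits were 16.5% to 17.7%, 20.6% to 22.6%, 15% to 16.2%, 28.7% to 31.9%, 20.6% to 23% and 7.91% to 8.9%. The members called lower in HFD in endothelial-like cells numbered 0 to 9, 9 without HFD mouse 3. HFD minus ND of the summed share ran from -0.316 to 0.0989 percentage points in Kupffer cell-like, -0.400 to 0.119 in endothelial-like, -0.0624 to 0.189 in B cell-like, -0.00227 to 0.0310 in T cell-like and -0.349 to 0.0245 in erythrocyte-like cells, and was -0.0118 in NK-like cells with the median of cells.

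The plate difference ran from 0.62 to 1.07 in T cell-like, -0.22 to 0.15 in endothelial-like and -0.085 to 0.68 in B cell-like cells without 1 mouse. By row alone it was 0.88 in T cell-like (exact permutation p = 0.125) and -0.21 in Kupffer cell-like cells (exact permutation p = 0.0625). In endothelial-like cells it was -0.12 by row alone (exact permutation p = 0.75). By column alone it was 0.73 in T cell-like (exact permutation p = 0.75) and -0.45 in B cell-like cells (exact permutation p = 0.25). With more variable genes in the clustering it was -0.0183 in Kupffer cell-like cells, and it was -0.0183 in endothelial-like cells without cells that held hepatocyte markers. The cause of these changes was not tested. The alternative of the 4 mice with at least 5 hepatocyte-like cells was chosen after seeing the data. A minimum of 10 cells per mouse gave no diet fit for MoMac/DC-like, NK-like and erythrocyte-like cells.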
